A study of Mus musculus with 8 samples.

Results

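Interferon-stimulated genes are the genes that a cell switches on when an interferon binds its receptor. Here 43 of them, matched by gene symbol in both deposited count tables, were taken out of the 54532 genes listed. They cover receptors, transcription factors, sensors of foreign nucleic acid, antiviral effectors, the ISG15 system and a partner group of ADP-ribosylation enzymes. The libraries came from brains of C57BL/6 mice collected at day 21. In the first experiment, cortex of mice with a photothrombotic stroke (a clot made in cortical vessels with light and a dye) plus restraint stress (PTS + RS, 2 libraries) was compared with cortex of mice that had restraint stress alone (RS, 2 libraries). In the second, every mouse had stroke plus restraint stress and received either the HDAC3 inhibitor RGFP109, a class I histone deacetylase inhibitor given subcutaneously at 60 mg/kg once a day for 2 weeks by the treatment protocol, though a longer course is given elsewhere for the study (2 libraries), or the control labelled NaCl (2 libraries). Within that experiment replicate 1 of each treatment was labelled cortex and replicate 2 amygdala. The labels do not say whether replicates were separate animals, so p-values are set against the spread between libraries, which may be technical. Where RGFP109 is compared with NaCl without pairing the tissue labels, that spread also includes any difference between those labels.

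Type I interferons signal through a receptor made of IFNAR1 and IFNAR2, and interferon gamma through a receptor that contains IFNGR1. Receptor-bound kinases phosphorylate STAT proteins, among them STAT2, which acts with IRF9 at the interferon-stimulated response element (ISRE) upstream of target genes. Many of the products sense, degrade or sequester viral RNA, and several, such as IRF7 and the RNA sensors, raise the capacity of the cell to make and answer interferon. In the brain, microglia, astrocytes, endothelial cells and neurons can all express these genes.

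Each library held 15902013 to 21712033 counts. Levels are in CPM, reads per 1000000 of the library size that edgeR's TMM scaling gives. The markers of the labelled tissue did not separate the libraries as labelled. Summed cerebral cortex markers were 1350 to 1631 CPM in the first experiment and 1208 to 1884 CPM in the second, and summed amygdala markers were 327 and 330 CPM in the amygdala-labelled libraries against 315 CPM in the cortex-labelled HDAC3 inhibitor library and 871 CPM in NaCl replicate 1, of which 628 CPM were Meis2 alone. Without Meis2, the other 9 amygdala markers summed to 183 CPM in each amygdala-labelled library. They summed to 253 CPM in HDAC3 inhibitor replicate 1 and 244 CPM in NaCl replicate 1. NaCl replicate 1, labelled cortex, also held 1528 CPM of olfactory bulb markers against 95.1 to 138 CPM in the other 7 libraries. Choroid plexus markers also differed within groups, from 224 CPM in PTS + RS replicate 2 to 2542 CPM in PTS + RS replicate 1. In the RS libraries they summed to 2777 and 5588 CPM, above both PTS + RS libraries, so this content also differed between the groups compared.

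The question put to the first experiment was which genes differ when stroke is added to restraint stress. All 43 members passed the filter on low counts, and 18 of them rose in PTS + RS cortex by edgeR's quasi-likelihood test (Benjamini-Hochberg adjusted p under 0.05 over all 17581 genes tested, together with a rise of 1 or more on the log2 scale), where 2.12% of all genes tested were called higher. None of the members was called lower by edgeR, DESeq2 or limma-voom, against 0.091% of all genes. At adjusted p alone, whatever the fold, 20 members were higher, beside 2.96% of all genes. The median log2 fold change was 1.28 over the 43 members and -0.0015 over all genes tested. Both PTS + RS libraries lay above both RS libraries for 40 of the 43, a pattern seen in 25.7% of all genes tested. The exceptions were Irf1, Cmpk2 and Ifi27, whose groups overlapped. In bulk tissue, more cells of a type and more RNA per cell cannot be told apart.

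**Figure D1:**
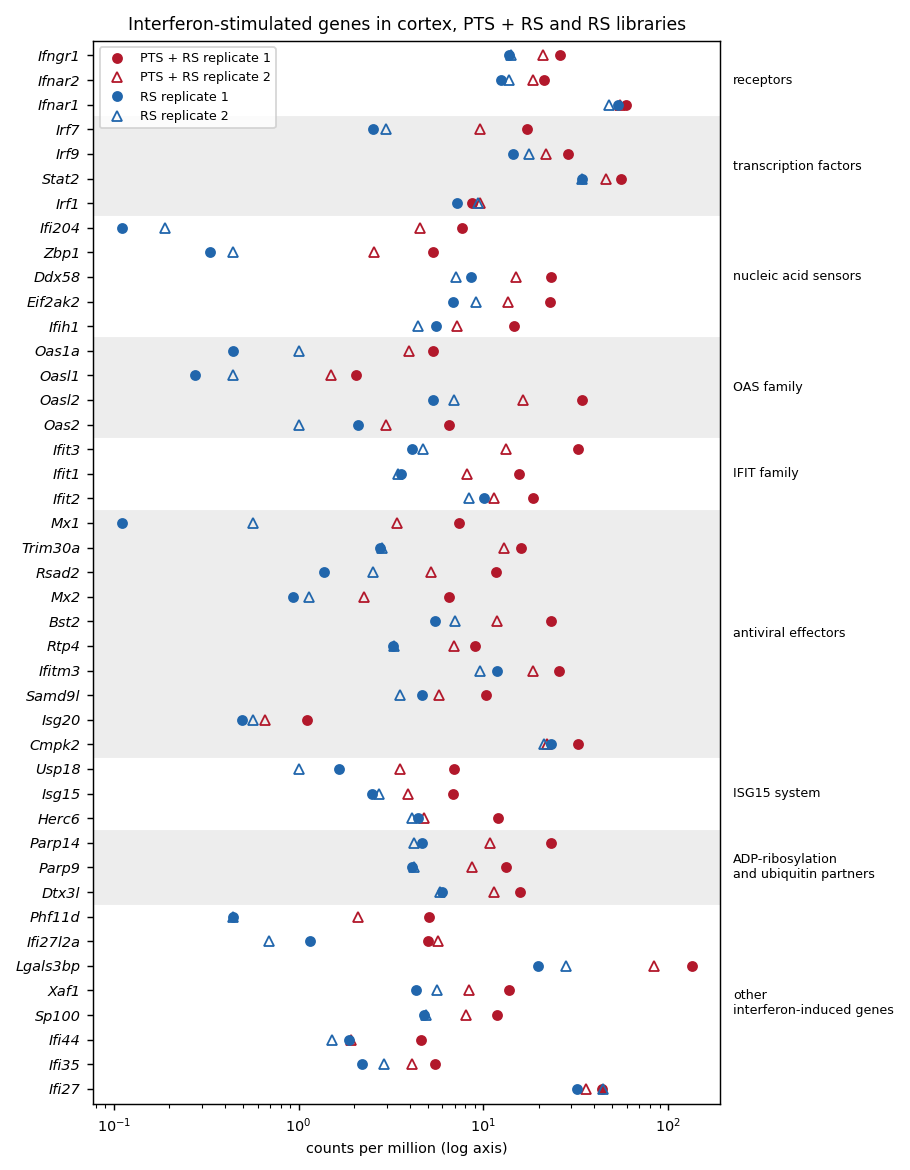
Level in CPM (log axis) of the 43 interferon-stimulated genes in the 2 PTS + RS libraries (red) and the 2 RS libraries (blue), with circles for replicate 1, triangles for replicate 2 and shaded bands for roles. Red points lie to the right of blue points for 40 of the 43 genes, and red circles mostly lie to the right of red triangles.

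The upstream sequence of several members holds letters that match the core of the ISRE, and it is shown here to place the changes beside the letters. RefSeq promoter windows (GRCm38.p6) matched 32 of the 43 members. The core searched was GAAANNGAAA on either strand, within the 250 bases before the annotated start site. It was present in 8 of the 32 members (25%) and in 3.46% of the 27025 genes with a window. A match is a description of these letters, not a site shown to be bound. Among members with a window, 4 of 11 that rose and 4 of 21 that were not called held it. The GAS core, TTCNNNGAA, which interferon gamma signalling uses, was present in 7 of the 32 members (21.9%) and in 8.13% of all genes with a window. It was held by 1 of the 11 that rose and 6 of the 21 that were not called. The matching stretches, 5′ to 3′ on the strand of the gene and with the ISRE core in capitals, are these.
Ifit1, plus strand, chr19:34640770-34640828: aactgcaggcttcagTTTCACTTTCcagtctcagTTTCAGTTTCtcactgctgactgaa
Ifit3, plus strand, chr19:34583358-34583431: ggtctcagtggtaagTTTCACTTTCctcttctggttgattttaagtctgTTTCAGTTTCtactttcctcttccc
Oas1a, minus strand, chr5:120907526-120907560: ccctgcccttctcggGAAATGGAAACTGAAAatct
Trim30a, minus strand, chr7:104465205-104465244: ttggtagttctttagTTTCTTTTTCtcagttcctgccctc
Isg15, minus strand, chr4:156200860-156200911: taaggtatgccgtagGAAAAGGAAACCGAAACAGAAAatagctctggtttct
Bst2, minus strand, chr8:71537572-71537617: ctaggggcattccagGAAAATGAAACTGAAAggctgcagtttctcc
Rsad2, minus strand, chr12:26456548-26456587: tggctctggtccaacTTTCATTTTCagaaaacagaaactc
Stat2, plus strand, chr10:128270261-128270300: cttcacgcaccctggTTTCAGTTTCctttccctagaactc
Ifit1, Ifit3, Oas1a and Bst2 each held 2 copies, and Isg15 held 3, with those of Oas1a, Bst2 and Isg15 overlapping. The cores of Oas1a began 20 bases before its start site and that of Trim30a began 36 bases before, whereas that of Stat2 began 222 bases before. Of these 8 genes, Ifit1, Ifit3, Oas1a and Trim30a rose, and Isg15, Bst2, Rsad2 and Stat2 were not called. Whether the cores bear on the changes was not tested.

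The 3 receptor genes had the lowest median log2 fold change of the roles, 0.61, and none was called by edgeR, DESeq2 or limma-voom. Ifnar1, a chain of the type I interferon receptor, stood at 59.3 and 54.7 CPM in PTS + RS and at 54.0 and 48.0 CPM in RS, a log2 fold change of 0.16 ± 0.10 (SE, n = 2 per group; edgeR adjusted p = 0.44). Ifnar2, the other chain, stood at 21.4 and 18.6 CPM against 12.5 and 13.8 CPM, with an adjusted p of 0.074. Ifngr1, the ligand-binding chain for interferon gamma, was at 26.1 and 21.1 CPM against 13.9 and 14.1 CPM. Its log2 fold change of 0.75 ± 0.15 passed the adjusted p (edgeR, 0.042) but not the fold limit. The libraries of the groups did not overlap for any of the 3 receptors.

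Among the 4 transcription factors only Irf7 was called. Irf7, the factor that amplifies interferon alpha production, was at 17.2 and 9.63 CPM in PTS + RS and at 2.54 and 2.97 CPM in RS, so that the lower PTS + RS library was still above 3 times the higher RS library. Its log2 fold change was 2.29 ± 0.31 (edgeR adjusted p = 0.011). Stat2, which encodes a subunit of the complex that binds the ISRE, was at 55.9 and 46.1 CPM against 34.3 and 34.3 CPM and passed the adjusted p alone (log2 fold change 0.57, edgeR adjusted p = 0.047). Irf9, the DNA-binding part of that complex, had a log2 fold change of 0.66 with an adjusted p of 0.10. Irf1, a factor induced strongly by interferon gamma, stood at 8.70 and 9.63 CPM against 7.23 and 9.34 CPM, and its groups overlapped.

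Of the 5 sensors of nucleic acid, 3 rose. Ifi204, a member of the HIN-200 family of DNA-binding proteins, had the largest log2 fold change of the 43 members (5.30 ± 0.50, edgeR adjusted p = 0.0027). Its counts were 131 and 76 in PTS + RS and 2 and 3 in RS. With so few counts in RS the fitted value depends on the prior count, and the ratio of summed counts, adjusted for library size, was 41.6 with a 95% exact counting interval of 17.5 to 129. Zbp1, a sensor of Z-form nucleic acid that can trigger cell death, was at 5.37 and 2.57 CPM against 0.331 and 0.442 CPM (log2 fold change 3.35, edgeR adjusted p = 0.017). Ddx58, which encodes the RNA sensor RIG-I, was at 23.2 and 15.1 CPM against 8.55 and 7.13 CPM (log2 fold change 1.28, edgeR adjusted p = 0.033). Ifih1, encoding the related sensor MDA5, and Eif2ak2, encoding the RNA-dependent kinase PKR, had log2 fold changes of 1.13 and 1.19 without passing (edgeR adjusted p = 0.14 and 0.069).

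The OAS enzymes make the signal that activates RNase L, and 2 of the 4 members of that family rose. Oas1a stood at 5.37 and 3.95 CPM in PTS + RS against 0.441 and 1.01 CPM in RS (log2 fold change 2.70 ± 0.42, edgeR adjusted p = 0.018). Oasl2, an OAS-like gene, was at 34.4 and 16.5 CPM against 5.35 and 6.94 CPM (log2 fold change 2.05, edgeR adjusted p = 0.026). Oasl1 had a larger log2 fold change, 2.30, than Oasl2 on far fewer counts (35 and 25 against 5 and 7) and an adjusted p of 0.051. Oas2 had a log2 fold change of 1.60 and an adjusted p of 0.14. Oas1a, like Ifi204, has close paralogs in the same cluster, so reads could be split or dropped between copies.

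The IFIT proteins bind viral RNA that lacks host cap marks. Ifit3 was at 32.5 and 13.3 CPM in PTS + RS against 4.14 and 4.73 CPM in RS, and Ifit1 was at 15.6 and 8.20 CPM against 3.59 and 3.47 CPM. These 2 genes rose by log2 fold changes of 2.37 and 1.75 (edgeR adjusted p = 0.027 and 0.035). Ifit2 differed less, at 18.5 and 11.4 CPM against 10.04 and 8.33 CPM (log2 fold change 0.70, edgeR adjusted p = 0.20).

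Among the 10 antiviral effectors, 4 rose. Trim30a, a TRIM family protein that restrains signalling downstream of Toll-like receptors, had the lowest adjusted p of all members (edgeR, 0.0015). It stood at 15.9 and 12.99 CPM in PTS + RS against 2.76 and 2.84 CPM in RS, with little spread inside either group. Mx1, an interferon-induced GTPase, had 126 and 57 counts in PTS + RS against 2 and 9 in RS, which is 7.35 and 3.41 CPM against 0.110 and 0.568 CPM (log2 fold change 4.01 ± 0.65, edgeR adjusted p = 0.022). Its RS libraries differed from each other more than those of any other member that rose, and its standard error was the largest of the 43. Rtp4, a chaperone of membrane receptors, was at 9.05 and 6.94 CPM against 3.26 and 3.28 CPM (log2 fold change 1.29, edgeR adjusted p = 0.030). Ifitm3, which blocks the entry of enveloped viruses, was at 25.7 and 18.7 CPM against 11.9 and 9.65 CPM and lay just inside the fold limit (log2 fold change 1.04, edgeR adjusted p = 0.038). Rsad2, which encodes viperin, and Bst2, which encodes tetherin, had log2 fold changes of 2.13 and 1.51 and missed the threshold (edgeR adjusted p = 0.057 for both). The other members of the group were Mx2, Samd9l, Isg20 and Cmpk2, whose log2 fold changes ran from 0.29 for Cmpk2 to 2.09 for Mx2.

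None of the 3 genes of the ISG15 system was called by edgeR, although all 3 had an unadjusted p under 0.05, as 37 of the 43 members and 17.9% of all genes tested did. ISG15 is a ubiquitin-like protein that is attached to other proteins, HERC6 is the mouse ligase for that step and USP18 removes it. Their log2 fold changes were 1.05, 0.98 and 1.96, and Usp18 came closest to the threshold (edgeR adjusted p = 0.058) and was the one of the 3 that DESeq2 called. In contrast, all 3 genes of the group of ADP-ribosylation and ubiquitin partners rose. Parp14 was at 23.2 and 10.9 CPM against 4.64 and 4.23 CPM (log2 fold change 1.94, edgeR adjusted p = 0.034). Parp9 was at 13.3 and 8.74 CPM against 4.14 and 4.23 CPM (log2 fold change 1.40, edgeR adjusted p = 0.030). Dtx3l, the ubiquitin ligase that forms a complex with PARP9, was at 15.8 and 11.4 CPM against 5.96 and 5.81 CPM (log2 fold change 1.21, edgeR adjusted p = 0.027). Parp9 and Dtx3l overlap on opposite strands, as 13 of the 43 members do with some other gene, and the strand setting of the counting was not given in the sources used here, so reads of such partners may not be told apart.

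Among the 8 other interferon-induced genes, 3 rose. Phf11d was at 5.08 and 2.09 CPM against 0.441 and 0.442 CPM (log2 fold change 3.003, edgeR adjusted p = 0.034). Ifi27l2a was at 5.02 and 5.69 CPM against 1.16 and 0.694 CPM (log2 fold change 2.51, edgeR adjusted p = 0.0090). Lgals3bp, a secreted glycoprotein that binds galectin 3, was at 135 and 83.8 CPM against 19.9 and 28.1 CPM (log2 fold change 2.19, edgeR adjusted p = 0.0050). Per transcript length it was the most abundant member in PTS + RS, with a mean of 38.1 FPKM there and 8.38 FPKM in RS. Ifi27 had the lowest log2 fold change of the 43, 0.07 ± 0.17, at 44.0 and 35.8 CPM against 32.1 and 44.2 CPM. Per length it was the most abundant member in RS, with a mean of 25.9 FPKM against 27.0 FPKM in PTS + RS. Xaf1, Sp100, Ifi44 and Ifi35 had log2 fold changes between 0.92 and 1.16 and were not called.

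**Figure D2:**
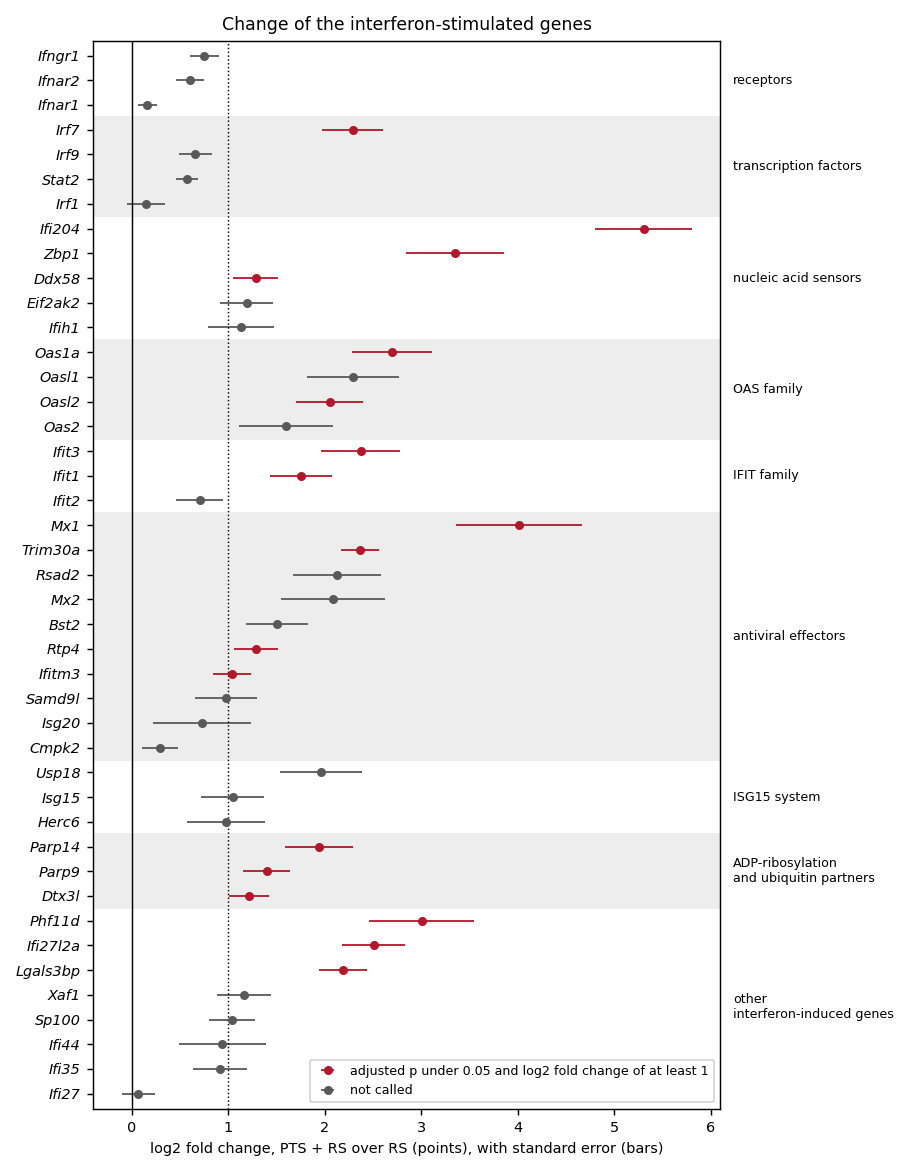
Log2 fold change of PTS + RS over RS (points) with the standard error of the edgeR fit (bars, 2 libraries per group) for the 43 genes by role, in red where called. All 43 points lie above 0, from 0.07 for Ifi27 to 5.30 for Ifi204, and the dotted line marks the fold limit of 1.

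The size of the call set depended on the model. DESeq2 called 26 members higher, with 2.31% of all genes, and limma-voom 8, with 1.79%. Tests on log2(FPKM + 1) and log2(FPKM + 0.1) called 5 and 7 members, with 1.05% and 1.48% of all genes. A fit of all 8 libraries, in which the groups of both experiments share 1 estimate of the spread, called 0 of the 43 and 0% of all genes. Lgals3bp, Trim30a, Ifi27l2a, Ifi204 and Oas1a were each called in 11 of the 12 alternatives, the exception being that fit. Without PTS + RS replicate 2 there were 34 calls among the members and 3.41% among all genes, and without PTS + RS replicate 1 there were 17 and 2.13%.

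The PTS + RS libraries differed from each other across the members. For 41 of the 43, replicate 1 was higher than replicate 2, with a median fold of 1.64, whereas 51.4% of all genes tested were higher in replicate 1 and the median fold over all genes was 1.007. Irf1 and Ifi27l2a were the exceptions. The RS libraries showed no such shift, with 16 of 43 members higher in replicate 1 and a median fold of 0.972. Other marker lists differed between the same PTS + RS libraries. Choroid plexus markers were 11.3 times higher in replicate 1, meningeal fibroblast markers 2.35 times, monocyte and border macrophage markers 2.08 times and microglia markers 1.19 times. The part of these differences in the spread of the members was not tested.

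**Figure D3:**
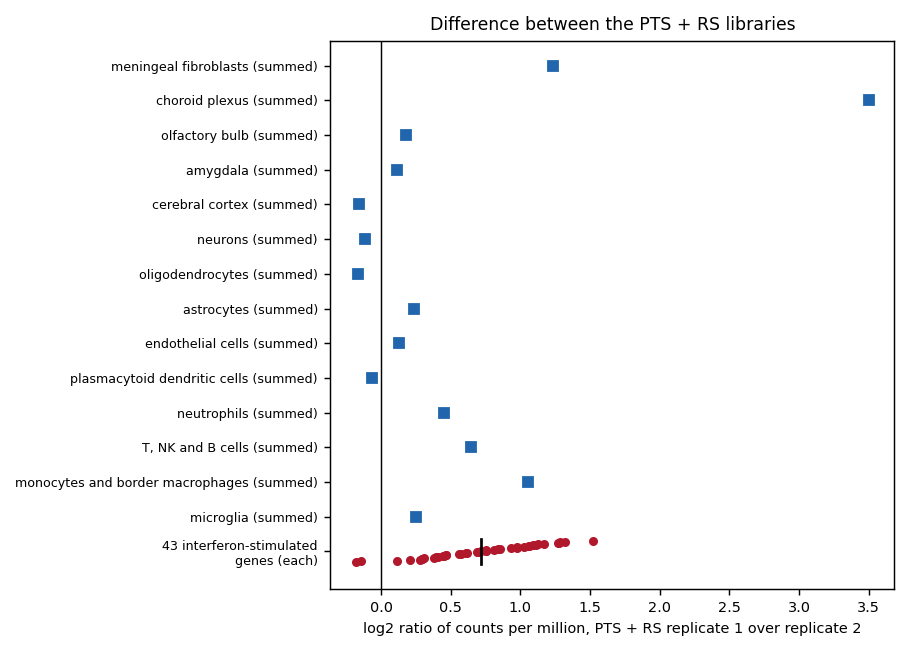
Log2 ratio of CPM in PTS + RS replicate 1 over replicate 2 for each of the 43 genes (red, black line at the median) and for the summed markers of each fixed cell type or region list (blue squares). 41 of the 43 red points lie above 0, the microglia square lies below the red median and the choroid plexus square lies far to the right.

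Markers of microglia, the resident macrophages of the brain, were also higher in PTS + RS. Of 12 microglia markers 10 were called higher, and their sum was 1341 and 1128 CPM in PTS + RS against 352 and 313 CPM in RS. Astrocyte markers summed to 7807 and 6631 CPM against 4459 and 4497 CPM, with 2 of 8 called. Of 8 markers of monocytes and border macrophages 5 passed the filter and 1, Ms4a7, was called. The 8 summed to 34.9 and 16.8 CPM against 11.8 and 9.84 CPM. The median log2 fold change was 1.48 over those 5, 1.79 over the microglia markers and 0.59 over the astrocyte markers. Ly6g, which defines neutrophils, was at 0 in all 4 libraries, and no marker of neutrophils or of T, NK and B cells passed the filter. Their part in the rise of the interferon-stimulated genes was not tested.

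Genes around the members in the pathway moved in part. Of 21 interferon genes, those for alpha, beta, gamma, lambda and other types, none passed the filter, and the highest count in any of the 4 libraries was 1. Interferon transcripts were thus not detectable beyond single counts at this depth. Of 8 other receptor chain, kinase and STAT genes, 1 was called, Il10rb, a chain shared with the interferon lambda receptor (log2 fold change 1.06). Among 7 feedback inhibitors only Ptpn6, a phosphatase abundant in blood-derived and microglial cells, was called (log2 fold change 2.09). Socs3 had a log2 fold change of 1.27 and an adjusted p of 0.072, and Socs1 of -0.34 with 0.79. For genes that sense nucleic acid or relay the signal to interferon production, 20 symbols were sought and 18 were found among the genes listed. Of these, 17 were tested and 5 rose. These were Tlr7 (log2 fold change 2.93), Irf8 (2.23), Dhx58 (1.48), Irf5 (1.46) and Tmem173, which encodes STING (1.37). Tlr7 and Irf8 are known for their expression in microglia and other myeloid cells. The median of the 17 was 0.72.

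The second experiment asked what RGFP109 changes in mice with stroke and restraint stress. Of the members, 42 passed the filter, Oasl1 being left out with 2 to 11 counts per library. None was called in either direction by edgeR, DESeq2 or limma-voom, and edgeR called 0% of the 17565 genes tested. At an unadjusted p under 0.05, 1 member and 206 genes in all were found by edgeR. That member was Ifitm3, at 11.2 and 11.4 CPM with the inhibitor against 15.9 and 17.9 CPM with NaCl (log2 fold change -0.58, adjusted p = 1.00). The median log2 fold change was -0.13 over the 42 members and -0.016 over all genes. Standard errors of the members ran from 0.17 to 1.07 on the log2 scale, against 0.097 to 0.65 in the first experiment. In simulated data with the spread of this experiment, 1.01% of genes given a log2 change of 1 passed the adjusted p. Of those given a change of 2, 41.7% were called. With the spread of the first experiment these values were 57% and 88%. A count of 0 therefore does not show that the members were unchanged. Fitting the pairs of tissue labels as a block left the count at 0.

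Few members separated the treatments in every library. Both inhibitor libraries lay below both NaCl libraries for Irf7, Zbp1, Ifitm3 and Ifi27l2a, which is 4 of 42 against 13.8% of all genes tested. They lay above for Irf1, Cmpk2, Parp9 and Dtx3l, again 4 of 42, against 12.8%. Ifi27l2a had the lowest log2 fold change, -0.84 ± 0.53, at 0.698 and 1.45 CPM with the inhibitor against 1.93 and 1.96 CPM. Ifi204 had the highest, 0.77 ± 1.07, at 0.761 and 2.57 CPM against 0.228 and 1.74 CPM, where replicate 2 exceeded replicate 1 in both treatments. The 3 receptors differed little. Ifnar1 was at 51.7 and 55.1 CPM against 58.1 and 49.6 CPM. Ifnar2 was at 14.8 and 12.6 CPM against 12.6 and 13.8 CPM. Ifngr1 was at 16.7 and 22.4 CPM against 21.0 and 23.8 CPM, and the treatments overlapped for all 3.

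Within the tissue labels the direction differed. In the cortex-labelled pair, 36 of the 42 members were lower with the inhibitor (median log2 ratio -0.38), where 51.8% of all genes were lower. In the amygdala-labelled pair, 12 of the 42 were lower (median log2 ratio 0.30), where 50.4% of all genes were lower. The members lower in both pairs numbered 11, against 25.4% of all genes tested. Ifit2 stood at 8.63 CPM with the inhibitor and 23.8 CPM with NaCl in the cortex-labelled pair, and at 16.2 and 11.1 CPM in the amygdala-labelled pair. Ifit3 stood at 8.82 and 17.0 CPM in the cortex-labelled pair and at 11.9 and 8.97 CPM in the amygdala-labelled pair. With 1 library per treatment and label, the difference between the pairs was not tested. The cortex-labelled NaCl library is the one with olfactory bulb markers, so in that pair treatment and tissue content cannot be told apart. Summed microglia markers were 403 CPM with the inhibitor against 509 CPM with NaCl in the cortex-labelled pair and 538 against 555 CPM in the amygdala-labelled pair. Of the 509 CPM, 208 CPM were Sall1 alone, which stood at 28.2 CPM with the inhibitor in that pair.

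**Figure D4:**
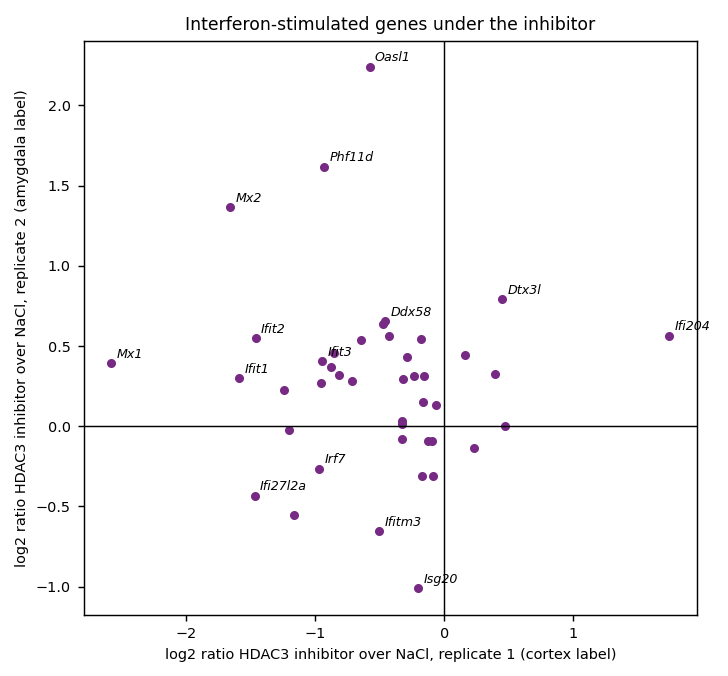
Log2 ratio of HDAC3 inhibitor over NaCl in the cortex-labelled pair (x axis) and the amygdala-labelled pair (y axis), each point 1 gene and each ratio 1 library over 1 library. Most points lie in the upper left, lower with the inhibitor in the cortex-labelled pair and higher in the amygdala-labelled pair, as Ifit2 and Mx2 do.

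Comparing replicate 2 with replicate 1 across both treatments, with treatment as a covariate, no member was called by edgeR, DESeq2 or limma-voom, and edgeR called 0% of all genes tested, whereas DESeq2 called 154 higher and 53 lower. At an unadjusted p under 0.05 edgeR found 3 members and 1607 genes in all. Ifi204 had the highest log2 fold change of the amygdala label over the cortex label, 2.23 ± 0.56 (adjusted p = 0.44). Herc6, the ISG15 ligase, was at 14.3 and 11.4 CPM in the amygdala-labelled libraries against 3.30 and 5.80 CPM in the cortex-labelled ones (log2 fold change 1.53, edgeR adjusted p = 0.44). Mx2 had the lowest, -0.71 ± 0.86. Within treatments, 38 of 42 members were higher in replicate 2 of the inhibitor group and 15 of 42 in replicate 2 of the NaCl group, where 48.5% and 49.7% of all genes were. Without NaCl replicate 1, Mx1, Trim30a and Herc6 were called higher in the amygdala-labelled libraries, and without HDAC3 inhibitor replicate 1, Ifi204 and Herc6 were called higher and Mx2 lower, in fits with 1 library on 1 side whose spread was assumed equal to that of the other. These 3 of 42 calls in each fit stand beside 6.13% and 13.4% of all genes called in either direction.

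Side by side, the NaCl libraries, which also came from mice with stroke plus restraint stress, did not show the levels of the PTS + RS libraries. The median level of the 43 members was 13.8 and 8.38 CPM in PTS + RS, 4.30 and 4.23 CPM in RS, 5.69 and 4.79 CPM in NaCl, and 3.996 and 6.45 CPM with the inhibitor. Both NaCl libraries lay below both PTS + RS libraries for 35 of the 43, where 25.4% of all genes tested in the first experiment did. Both lay above both RS libraries for 18 of the 43, where 23.1% of all genes did. Microglia markers summed to 509 and 555 CPM in NaCl, also between the RS and PTS + RS sums. Of the 509 CPM in NaCl replicate 1, 208 CPM were Sall1 alone, which stood at 20.8 to 49.3 CPM in the first experiment. The place of that sum above the RS sums thus depended on Sall1. The tables of the experiments were scaled separately, so these levels were compared without a test, and experiment, treatment and tissue cannot be told apart, since 1 NaCl library was labelled amygdala and the other held olfactory bulb markers.

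**Figure D5:**
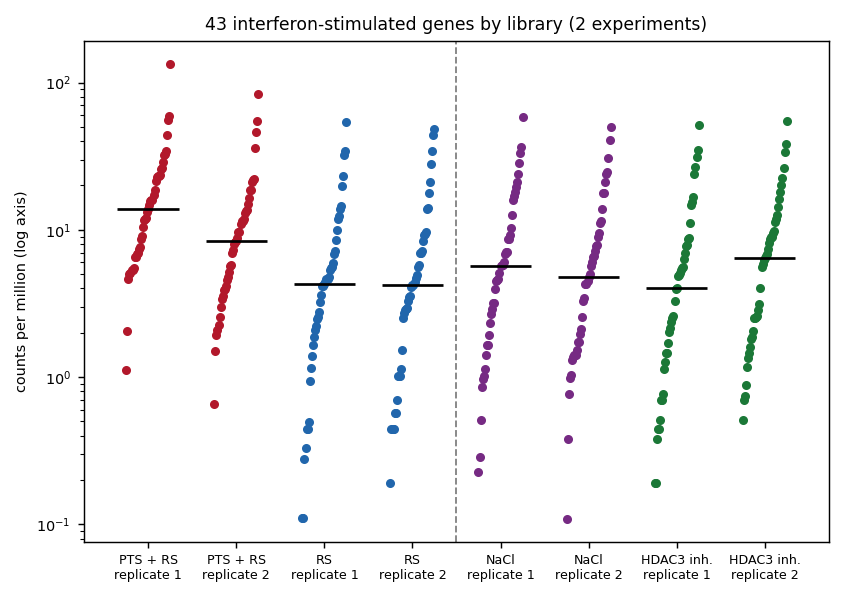
Level in CPM (log axis) of the 43 interferon-stimulated genes in each of the 8 libraries, each point 1 gene sorted by level and the black line the median. The dashed line separates the experiments, and the medians of the 2 PTS + RS libraries, 13.8 and 8.38 CPM, lie above those of the other 6, which run from 3.996 to 6.45 CPM.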

How the data were processed

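RNA was sequenced from 8 mouse brain libraries in 2 experiments. Per the labels and methods, the authors aligned reads to GRCm38 with STAR 2.4.0 and counted them per gene with HTSeq 0.6.1, and the labels and the methods name different library kits. The deposited tables hold raw read counts and the authors' FPKM (counts scaled by gene length and library size). The authors' own fold changes and p-values and 8 normalized signal columns in the inhibitor table were not used. Genes of that table, which lists 28229 genes, were matched to identifiers by position.

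Counts were filtered with filterByExpr, scaled by TMM and tested with edgeR 4.0.16 (quasi-likelihood, Benjamini-Hochberg over all genes tested) in R 4.3.3; standard errors are the log2 fold change over the root of F. Calls needed an adjusted p under 0.05 with a log2 difference of 1 or more. DESeq2 1.42.0, limma 3.58.1 (voom, and trend on log2(FPKM + 1) and log2(FPKM + 0.1)), other scaling, no filter, a replicate block and leaving out each library were alternatives. The code was tested on simulated data. Counting intervals cover counting error only. The members, roles and gene lists were chosen with earlier results of these data known. Named with values were the called members, the receptors, the members with the lowest and highest log2 fold change of each comparison, and called genes of the pathway lists. Other members were named after their values were seen. Same-numbered libraries deviated together with a correlation of 0.032 in the first experiment and 0.31 in the second, where the number is the tissue label. Promoter windows came from RefSeq, GRCm38.p6.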

Additional observations from a re-analysis of the deposited data

Results flagged for a closer look

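For 8 members the inhibitor ratio had opposite signs in the cortex-labelled pair (replicate 1) and the amygdala-labelled pair (replicate 2). For both log2 ratios of each, the 95% exact counting interval, which covers counting error only, did not include 0. The difference between the pairs was not tested, since each treatment has 1 library per label. The log2 ratios of HDAC3 inhibitor over NaCl, cortex label first, were -0.168 and 0.149 for Ifnar1, -0.456 and 0.654 for Ddx58, and -0.476 and 0.637 for Ifih1. In the IFIT family they were -1.46 and 0.548 for Ifit2 and -0.948 and 0.404 for Ifit3. They were -1.66 and 1.37 for Mx2, -0.815 and 0.32 for Herc6, and -0.855 and 0.458 for Xaf1. In each of the 8 the cortex-labelled ratio was below 0 and the amygdala-labelled ratio above. These 8 of the 42 members tested stand beside 12.5% of all genes tested, and signs alone were opposite in 26 of the 42 beside 51.3% of all genes tested. No group held enough libraries to look for a single library far from its group.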

How the results depend on the processing

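For PTS + RS against RS, 18 members were called. The count became 8 with limma-voom, 29 with no filter on low counts, 5 and 7 with log2(FPKM + 1) and log2(FPKM + 0.1), and 0 when all 8 libraries shared 1 estimate of the spread; other scaling and DESeq2 stayed within 1.5 times. The replicate block gave 27, but replicate numbers in that experiment are only names (correlation of deviations 0.032), and with the replicate block the inhibitor comparison stayed at 0. Leaving out 1 library gave 16 to 34 calls, a median from 0.94 to 1.55, and -0.15 to 0.31 for Ifi27, which was never called. The members' median was 0.73 with log2(FPKM + 1), a scale that understates the change of low genes, and 1.28 in the main test. For the inhibitor the count was 0 in all alternatives, the median ran from -0.41 without HDAC3 inhibitor replicate 2 to 0.06 without HDAC3 inhibitor replicate 1, and signs turned for Ifnar1 with FPKM (0.00062 and 0.00097) and, when 1 library was left out, for Ifnar1 (-0.11 to 0.098), Ifnar2 (-0.070 to 0.17), Ifngr1 (-0.42 to 0.0060) and Ifi204 (-0.37 to 2.87). For replicate 2 against replicate 1, leaving out 1 library gave 0 to 3 calls and medians from -0.12 to 0.45, the latter without NaCl replicate 1, and turned signs for Ifnar1 (-0.14 to 0.032), Ifnar2 (-0.16 to 0.067) and Mx2 (-1.62 to 0.29). Few counts limit several members, among them Oasl1, Isg20, Phf11d, Mx1 and Ifi204.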
